A study of Mus musculus with 20 samples.

Results

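The comparison is between 2 populations sorted from spleen: cells labelled CD11cint, CD24 positive and CD8int (CD11cint cells) and type 1 conventional dendritic cells (cDC1), both from C57BL/6 mice labelled March1-/- on postnatal day 21. Its members are 8 of the 20 libraries of the series, 4 of each population, chosen by the titles given to the libraries. The other libraries, 4 each of March1-/- B cells, WT B cells and WT cDC1, entered the same fit, and the last 2 groups served as a second B cell against cDC1 comparison. Total RNA was sequenced and read counts per gene were deposited. By its title, the series concerns marginal zone B cells that take up membrane from dendritic cells, and the question here is which RNAs such a B cell and a cDC1 hold in common and which ones part them. The labels do not say how many mice gave each library, nor whether both populations came from the same mice.

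Marginal zone B cells lie at the border of the splenic white pulp, where they meet blood-borne antigen through complement receptors and innate sensors. cDC1 are the dendritic cells specialised in taking up dead cells and in showing the peptides made from them on MHC class I to CD8 T cells. Both present antigen on MHC class II and both sense nucleic acids in endosomes, but they come from separate lineages, held apart by transcription factors such as Pax5 and Ebf1 on the B cell side and Irf8, Batf3 and Id2 on the cDC1 side. March1 encodes a membrane-bound ubiquitin ligase that removes MHC class II and CD86 from the cell surface. All 8 libraries carry the March1-/- label, so the genotype does not differ within the comparison. The labels do not tell which part of the gene was deleted, so its count is no check of the genotype: March1 was at 119, 134, 124 and 132 CPM in CD11cint libraries 1 to 4 and at 259, 267, 254 and 272 CPM in cDC1 libraries 1 to 4. CD11cint cells of WT mice were not analysed here.

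The 8 libraries held 22491084 to 32537371 counts in genes, and a count of 3 in a library, taken as the floor of detection for counting error, was 0.0999 to 0.129 CPM. CPM are counts scaled to the library size, with TMM factors. Separate animals are not named for libraries of 1 population, and p-values therefore reflect library-to-library spread, part of which may be technical. In bulk RNA, fewer cells of a type and less RNA per cell cannot be told apart. Both libraries numbered 1 stood apart from the rest of their population: the chi-square per gene against libraries 2 to 4 was 43.0 to 67.3 for CD11cint library 1 (6.71 to 11.7 among libraries 2 to 4) and 53.1 to 68.5 for cDC1 library 1 (11.8 to 20.4). Their deviations fell with exon length (Pearson r across 8848 genes, which are not independent replicates, of −0.59 in CD11cint library 1 and −0.41 in cDC1 library 1). Among markers of other cells, 4 of 11 T cell genes were higher and 2 lower in CD11cint cells (edgeR adjusted p under 0.05, which 72.3% of all genes tested passed), with summed levels of 43.5 to 49.2 CPM in CD11cint libraries and 29.1 to 34.6 CPM in cDC1 libraries. The defining Cd3e was near the low end on both sides (0.891 ± 0.312 and 0.863 ± 0.172 CPM, mean ± SD, n = 4 each). The 11 macrophage and monocyte genes (5 lower in CD11cint cells, none higher) summed to 60.4 to 68.7 CPM against 337 to 397 CPM and the 7 cDC2 genes (all 7 lower) to 47.8 to 60.3 CPM against 158 to 198 CPM. Of 7 plasmacytoid dendritic cell (pDC) genes 2 were higher and 4 lower. Their sum, 712 to 1098 CPM against 237 to 262 CPM, was in CD11cint libraries mostly Ly6d, which B cells also express (661 ± 182 against 13.1 ± 0.992 CPM), whereas Siglech, a defining gene, was at 4.46 ± 2.21 against 49.1 ± 4.96 CPM. Of 10 erythroid and platelet genes 7 were tested, 2 higher and 1 lower (6 higher with the replicate number as a block). They summed to 1633 to 4729 CPM against 1081 to 2421 CPM, and the haemoglobin genes took 0.273 ± 0.136% against 0.144 ± 0.0538% of counts (mean ± SD, n = 4, exact permutation p = 0.114). The 7 NK cell genes (1 higher and 1 lower, 4 higher with the block) summed to 11.7 to 24.05 CPM against 47.1 to 61.3 CPM. In cDC1 libraries this sum was mostly Klrd1. Gzma, Ncr1, Eomes and Klrb1c had higher means in CD11cint cells but were not called, so the sum does not rank the populations by NK cell RNA. The 7 neutrophil genes, of which 6 were tested (1 higher, 5 with the block), summed to 12.8 to 65.1 CPM against 6.00 to 23.98 CPM. The part of these cells in the results was not tested.

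The genes that mark the populations are Cr2, which encodes the complement receptor CD21 of marginal zone B cells, and Xcr1, the receptor of cDC1 for the chemokine XCL1. Their promoters are shown because the comparison turns on these genes, 250 bases before the start of the gene and 50 bases after it, on the strand of the gene, 5′ to 3′, from RefSeq on GRCm38.p6. Cr2 lies on chromosome 1 on the minus strand (chr1:195176670-195176969) and Xcr1 on chromosome 9 on the minus strand (chr9:123861980-123862279). Capitals mark matches, on either strand, to 6 motifs searched in both windows: the E box CAGGTG bound by E proteins, the octamer ATGCAAAT, the Ets and IRF composite (GGAA, any 2 bases, GAAA), the AP-1 element TGANTCA, the Ebf1 element (TCCC, any 2 bases, GGGA) and the CCAAT box. No match of 1 motif overlapped a match of another.
Cr2: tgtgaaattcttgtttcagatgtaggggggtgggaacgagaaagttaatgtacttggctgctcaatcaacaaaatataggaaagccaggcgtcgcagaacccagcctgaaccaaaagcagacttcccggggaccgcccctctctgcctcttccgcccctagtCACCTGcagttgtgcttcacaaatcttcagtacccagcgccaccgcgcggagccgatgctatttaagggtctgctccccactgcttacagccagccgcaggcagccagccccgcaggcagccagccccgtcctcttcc
Xcr1: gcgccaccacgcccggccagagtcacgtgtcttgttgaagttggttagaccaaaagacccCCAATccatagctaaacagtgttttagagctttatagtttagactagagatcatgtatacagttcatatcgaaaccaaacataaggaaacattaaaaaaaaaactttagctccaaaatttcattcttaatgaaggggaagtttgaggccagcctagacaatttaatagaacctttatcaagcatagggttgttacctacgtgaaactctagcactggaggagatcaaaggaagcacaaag
The Cr2 window holds 1 match, the E box read on the other strand at position −88 from the start site. The Xcr1 window holds 1 CCAAT box at position −190. Of all 32851 promoters in the table, 20.2% hold the E box and 37.4% the CCAAT box. Among the genes at least 16-fold higher in CD11cint cells (244 promoters) the E box was in 26.6%, among those at least 16-fold lower (738 promoters) in 19.1%, and among genes at 10 CPM or more on both sides with an interval inside 1.5-fold (4106 promoters) in 15.5%. For the Ebf1 element the shares were 3.69%, 1.22% and 0.658%, against 0.904% of all promoters, and for the octamer 3.28%, 1.76% and 0.852%, against 1.74%. The first of these shares rest on only 9 and 8 promoters. The other motifs were not more frequent on the CD11cint side. The Ets and IRF composite was in 0.82%, 2.98% and 2.29% (2.72% of all), the AP-1 element in 7.38%, 9.49% and 4.12% (7.81% of all). The CCAAT box was in 29.9%, 30.1% and 37.8%. Only protein-coding genes entered these gene groups. A match describes letters in this window and is not a site.

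Cr2 was at 2494, 3419, 3263 and 3273 CPM in CD11cint libraries 1 to 4 and at 40.8, 40.6, 29.1 and 34.3 CPM in cDC1 libraries 1 to 4. Xcr1 was at 3.7, 4.03, 2.92 and 3.43 CPM in CD11cint libraries and at 790, 849.6, 758 and 754 CPM in cDC1 libraries. All libraries of a population lay far from those of the other for both genes, and the log2 differences were 6.43 ± 0.15 and −7.80 ± 0.12 (log2 fold change ± SE, edgeR adjusted p = 1.53e-18 and 1.3e-22). Of the markers used to sort, Itgax, which encodes CD11c, and Cd8a were lower in CD11cint cells (−6.81 ± 0.19 and −7.41 ± 0.14), and Cd24a was higher (0.88 ± 0.08, edgeR adjusted p = 1.92e-09). C3, the complement component that CD21 binds in its cleaved form, was near the low end on both sides, at 3.84, 5.08, 4.25 and 4.6 CPM in CD11cint libraries and 2.56, 3.63, 3 and 3.1 CPM in cDC1 libraries. The 2 sets did not overlap, but C3 did not pass the test (log2 fold change 0.53 ± 0.26, edgeR adjusted p = 0.0705). It passed with the replicate number as a block (adjusted p = 0.000269).

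**Figure D1:**
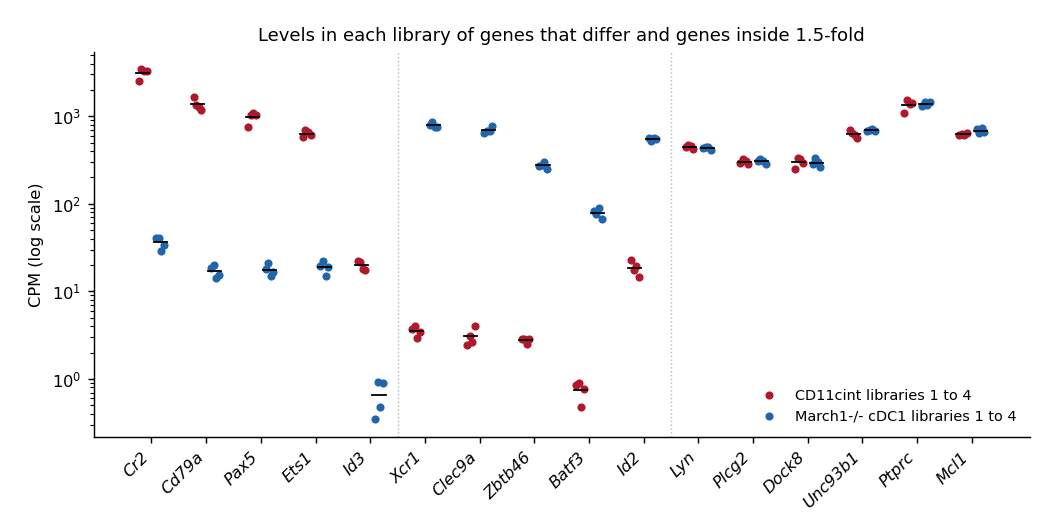
CPM (log scale) in each of the 4 CD11cint libraries (red) and 4 March1-/- cDC1 libraries (blue) for 16 genes, with black bars at the means. The first 5 genes were higher in CD11cint cells, the next 5 lower, and the last 6 had a 95% interval of the fold change inside 1.5-fold.

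The fit tested 18710 genes, and at a Benjamini-Hochberg adjusted p under 0.05 (edgeR, quasi-likelihood) it called 13534 (72.3%), 6849 (36.6%) higher and 6685 (35.7%) lower in CD11cint cells. The split moved with the scaling, to 8003 higher and 5808 lower with upper quartile factors and to 8244 and 5617 with library size alone. In the text, genes are said to be called, higher, lower, risen or fallen when they pass this test, and a value with ± that has no unit is a log2 fold change with its SE. Counts of list members called are to be read beside the shares over all genes tested, 36.6% higher and 35.7% lower. Among 268 genes named, 30 share over 10% of their exon bases or 25% of their 31-base words with other genes, which leaves their values uncertain. Beside those given with their share further on, these are Actg1, Apol7a, Apol7c, Ccr9, Cd274, Cd72, Cd9, Eef1a1, Gapdh, Hspa1a, Klrb1c, Pilra, Rps27, Tap2 and Tapbp. With replicates this close (biological coefficient of variation 10.9%), the test also called small differences, and 2520 of the called genes had a 95% interval that stayed inside 1.5-fold. A test against a minimum of 2-fold left 4969 genes (26.6%), 2156 (11.5%) higher and 2813 (15%) lower in CD11cint cells. These were 4940 without both libraries numbered 1. The libraries of the populations did not overlap for 11726 genes (62.7%). The genes past the 2-fold minimum and higher in CD11cint cells took 12.1% of the counts there and 1.94% in cDC1, whereas those that were lower took 5.87% in CD11cint cells and 25.02% in cDC1. At least 4-fold apart were 1512 genes on the CD11cint side and 1934 on the cDC1 side, and at least 16-fold apart 668 and 937. Few genes were on or off outright: no gene at 10 CPM or more in CD11cint cells had at most 3 counts in every cDC1 library, and only 6 genes had the reverse pattern, namely Tlr5, Cyp7b1, Cd209e, H2-M5, Nlrp1c-ps and Gm47135, named after their values were seen.

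**Figure D2:**
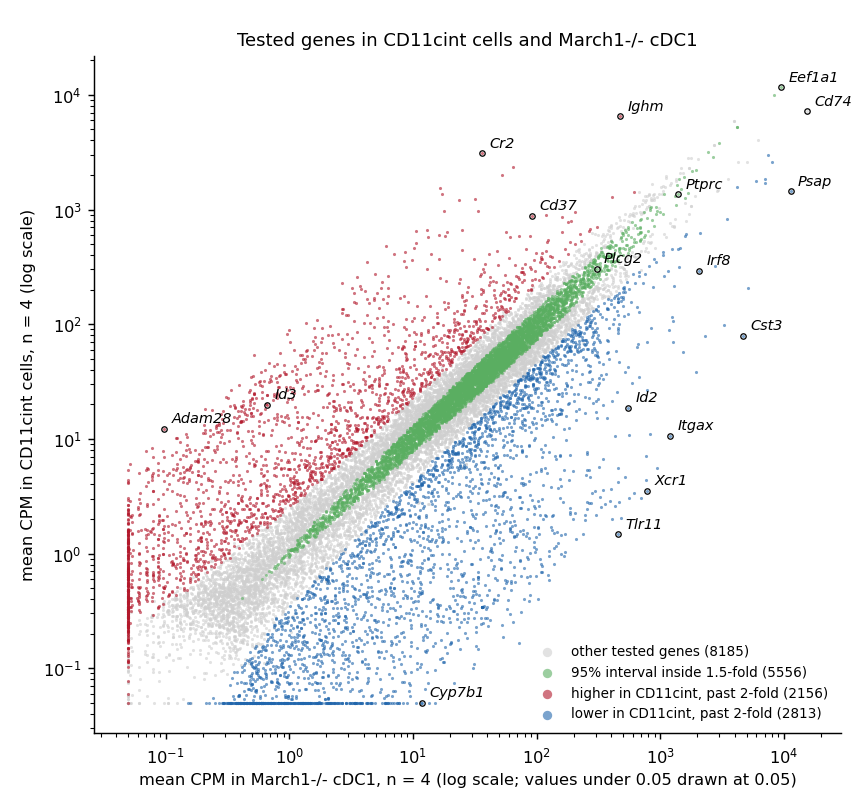
Mean CPM of each tested gene in March1-/- cDC1 (horizontal) and in CD11cint cells (vertical), both on log scales, n = 4 libraries each. Red and blue mark the 2156 and 2813 genes past the 2-fold minimum, green the 5556 genes with a 95% interval inside 1.5-fold, grey the others.

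Many genes were held within narrow bounds. The 95% interval of the fold change lay inside 1.5-fold for 5556 genes (29.7%), and inside 2-fold for 9838 (52.6%). Genes inside 1.5-fold took 40.3% of the counts of CD11cint cells and 35.4% of those of cDC1. Of the 8855 genes at 10 CPM or more in both populations 4502 were inside 1.5-fold. Among the 5176 genes not called, 3036 were inside 1.5-fold, while for 1088 the interval reached past 2-fold, so a missed call alone does not show likeness.

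By the share of counts they took, the first genes inside 1.5-fold, leaving out ribosomal protein and mitochondrial genes, were led by the translation factors Eef1a1 and Eef2, the abundant Tpt1 and the chaperone gene Hsp90ab1. The MHC class I genes H2-K1 and B2m, Ly6e, Ptprc (which encodes the leukocyte antigen CD45), Pabpc1, Ppia, Hnrnpa2b1, Coro1a, Eif4g2, Srrm2 and Myh9 followed. Ptprc was at 1093, 1520, 1390 and 1407 CPM in CD11cint libraries and 1310, 1470, 1341 and 1467 CPM in cDC1 libraries, and the sets overlapped (log2 fold change −0.05 ± 0.09, 95% interval −0.23 to 0.13). Coro1a, an actin-binding protein of leukocytes, was at 1165, 1001, 930.2 and 818 and 993, 969.8, 979 and 838 CPM, also overlapping (0.05 ± 0.09). The other 5 of the 20 genes, Gm28437, Gm29216, Gm13456, Gm6170 and Gm26377, share sequence with other genes, so reads could not be assigned to them with certainty. Of the genes at 10 CPM or more in both populations 50.8% were inside 1.5-fold, and among these 31 of 41 complex I genes of the respiratory chain (75.6%) and 20 of 37 proteasome genes (54.1%), the latter near the share of all. Of all 38 proteasome genes 26 were called lower and 2 higher (median −0.33). Of 18 housekeeping genes 8 were inside 1.5-fold, among them Gapdh, Hprt, Sdha and Ppia, whereas Gusb, the lysosomal glucuronidase often used as a reference gene, was at 70.2 ± 4.03 against 781 ± 22.2 CPM and Actb at 2986 ± 422 against 7401 ± 923 CPM.

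Several shared genes belong to machinery usually named after 1 of the 2 lineages. Lyn, the Src family kinase next to the B cell receptor, was at 449, 464, 454 and 423 CPM in CD11cint libraries and at 436, 448, 448 and 406 CPM in cDC1 libraries. Plcg2, the phospholipase that carries the signal of that receptor to calcium, was at 292, 324, 312 and 285 and 309.8, 323, 309 and 282 CPM. Both sets overlapped, with log2 fold changes of 0.04 ± 0.06 and −0.01 ± 0.06 (95% intervals −0.09 to 0.17 and −0.13 to 0.11). Pik3ap1, Vav1 and Bcl10, an adaptor, an exchange factor and a scaffold of the same pathway, were inside 1.5-fold as well (−0.04 ± 0.09, −0.13 ± 0.05 and 0.25 ± 0.06). Unc93b1, the chaperone of endosomal Toll-like receptors, was at 633 ± 54.5 and 693 ± 12.6 CPM, the exchange factor gene Dock8 at 299.8 ± 38.1 and 296 ± 27.1 CPM, and the survival gene Mcl1 at 623 ± 17.3 and 684 ± 41.2 CPM (edgeR adjusted p = 0.107, 0.865 and 0.0575). With the replicate number as a block, Unc93b1 and Mcl1 were called (adjusted p = 0.034 and 0.0354), as they were without CD11cint library 1 and without CD11cint library 4 or cDC1 library 2 or 4, respectively, at log2 differences of −0.18 to −0.13. Notch2, the receptor that both marginal zone B cells and some splenic dendritic cells need, had a log2 fold change of 0.24 ± 0.12 (95% interval 0.00 to 0.48). It was called with the block (adjusted p = 0.00816) and without CD11cint library 1 or cDC1 library 2 (0.00372 and 0.0393). The costimulatory ligand gene Icosl (−0.12 ± 0.11), the positioning receptor gene P2ry10 (0.14 ± 0.11) and the transcription factor gene Zeb2 (0.16 ± 0.16) were not called either and had intervals inside 1.5-fold.

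Transcription factor genes listed for their part in a lineage stood on both sides. Of these 30 factors 18 were higher and 11 lower in CD11cint cells, 12 and 10 past the 2-fold minimum, and Zeb2 was not called. The median log2 fold change was 0.61, against 0.03 over all genes tested. This split and the median depend on which factors were listed. On the B cell side, Pax5 was at 745, 1035, 1081 and 1035 CPM in CD11cint libraries and 18.1, 20.9, 15.1 and 16.6 CPM in cDC1 libraries, a log2 fold change of 5.78 ± 0.13. Ebf1, which with Pax5 sets the B cell programme, rose by 5.83 ± 0.10, the coactivator gene Pou2af1 by 5.59 ± 0.08, Ikzf3 by 5.21 ± 0.15 and Ets1 by 5.07 ± 0.12. On the cDC1 side, Batf3, which cDC1 need to develop, was at 0.846, 0.903, 0.472 and 0.778 CPM in CD11cint libraries and 82.3, 75.9, 89.7 and 67 CPM in cDC1 libraries, a log2 fold change of −6.69 ± 0.19. Zbtb46, a factor of conventional dendritic cells, was lower, at −6.63 ± 0.09 and Id2 at −4.89 ± 0.12, all with an edgeR adjusted p of at most 7.96e-19. Other factors were lower in CD11cint cells but well counted there. Irf8 was at 294 ± 34.5 CPM in CD11cint cells (2061 ± 141 CPM in cDC1), Spi1, which encodes PU.1, at 61.3 ± 9.01 (261 ± 22.7), and Relb at 52.4 ± 7.97 (107 ± 7.65). The E protein genes Tcf3, Tcf12 and Tcf4 were all higher in CD11cint cells (1.63 ± 0.07, 0.57 ± 0.07 and 0.88 ± 0.09). Runx3, also higher, had an interval inside 1.5-fold.

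Genes of antigen receptor signalling mostly had higher RNA levels in CD11cint cells. Of 28 genes of the B cell receptor pathway 18 were higher, 7 lower and 3 not called, with 5 inside 1.5-fold. The surface chains and B lineage adaptors stood far apart, with Cd79a, a signal chain of the receptor, at 1663, 1351, 1276 and 1183 CPM in CD11cint libraries and 18.6, 20.2, 14.1 and 15.2 CPM in cDC1 libraries, and Blk, Cd22, Bank1 and Blnk at log2 fold changes of 5.94, 5.28, 5.01 and 4.88. Differences of the enzymes below them were smaller. Syk was at 756, 792, 841 and 761 CPM in CD11cint libraries and 188, 193, 198 and 182 CPM in cDC1 libraries (2.05 ± 0.06), Btk rose by 0.54 ± 0.05 and Malt1 by 1.52 ± 0.09, while Inpp5d, which encodes the phosphatase SHIP1, and Pik3cd fell (−1.23 ± 0.07 and −0.92 ± 0.07). Of 17 myeloid signalling genes 14 were lower, 2 higher (Tec and Pilra) and 1 not called, with a median log2 fold change of −3.05. Fcer1g and Tyrobp, the signal chains of many myeloid receptors, were lower, at −4.26 ± 0.24 and −3.05 ± 0.12, Card9, the adaptor of lectin receptors, at −6.44 ± 0.22, and Lcp2, the adaptor SLP-76, at −5.31 ± 0.14. Plcg1 was not called (−0.07 ± 0.07).

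Fc receptors stood on both sides. Of 14 genes 8 were higher and 4 lower (median log2 fold change 1.29). The IgM receptor gene Fcmr was at 409 ± 34.8 against 6.98 ± 1.93 CPM, the CD23 gene Fcer2a at 167 ± 13.6 against 4.27 ± 0.981 CPM and Fcrl5 at 227 ± 19.8 against 2.65 ± 0.639 CPM. Fcgrt, the neonatal Fc receptor that recycles IgG, was the reverse at 3.99 ± 0.429 against 112 ± 8.89 CPM. The inhibitory IgG receptor gene Fcgr2b was well counted on both sides, at 163, 169.9, 181 and 184 CPM in CD11cint libraries and 94.1, 92.7, 92 and 100.5 CPM in cDC1 libraries, with no overlap (0.88 ± 0.07, edgeR adjusted p = 8.42e-11).

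**Figure D3:**
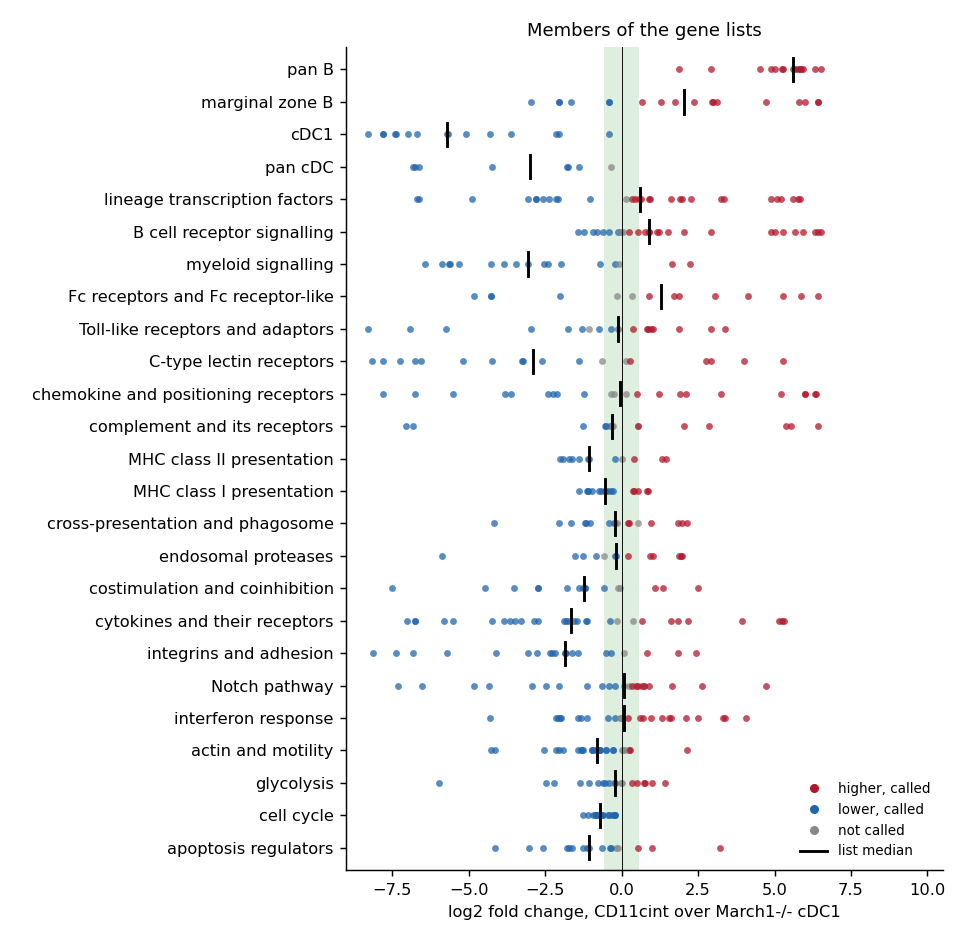
Log2 fold change of each tested member of 25 gene lists, CD11cint cells over March1-/- cDC1, n = 4 libraries each. Red and blue mark genes called higher and lower, grey those not called, black bars the list medians, and the green band 1.5-fold in either direction. Medians run from 5.59 (pan B) to −5.72 (cDC1).

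Innate sensors included genes on both sides. Of 19 Toll-like receptor and adaptor genes 8 were higher and 8 lower in CD11cint cells (median log2 fold change −0.13), shares near those of all genes tested (36.6% and 35.7%). Tlr11 and Tlr12, which in mice sense profilin of protozoa, were at 1.47 ± 0.154 and 2.15 ± 0.433 CPM in CD11cint cells against 454 ± 21.3 and 116 ± 8.84 CPM in cDC1, and Tlr13, a sensor of bacterial ribosomal RNA, at 1.23 ± 0.226 against 148 ± 7.49 CPM. Tlr3, which senses double-stranded RNA and is on the marginal zone list, was at 43.2, 54.4, 54.1 and 48.4 CPM in CD11cint libraries and 382, 419, 349 and 401 CPM in cDC1 libraries (−2.95 ± 0.17), so it was lower but well above the floor in CD11cint cells. Tlr7, the receptor for single-stranded RNA, was the reverse, at 131, 147, 136 and 158 and 13.2, 15.4, 11.3 and 15.4 CPM (3.37 ± 0.13). Tlr9, for unmethylated DNA, overlapped between the sides and rose by 0.36 ± 0.13, a call lost without CD11cint library 2 or cDC1 library 4 (adjusted p = 0.0976 and 0.055). At the surface, Tlr1, Tlr4 and Cd180, a relative of Tlr4, were higher, and Tlr2 lower (2.92 ± 0.08, 1.89 ± 0.14, 1.04 ± 0.09 and −1.74 ± 0.09). Of 18 C-type lectin receptor genes 11 were lower and 5 higher (median −2.90). Clec9a, which binds actin of dead cells, was at 2.47, 3.08, 2.66 and 4.07 CPM in CD11cint libraries and 639, 679, 677 and 781 CPM in cDC1 libraries, and Cd207, Clec7a and Ly75 were lower, at −6.77 ± 0.25, −5.20 ± 0.27 and −2.60 ± 0.14. Those higher in CD11cint cells were Fcer2a, Cd69, Cd72, Clec2i and Clec2d. Clec2d (0.29 ± 0.12) was lost without CD11cint library 1 or cDC1 library 1, 3 or 4 (adjusted p from 0.051 to 0.148). Cytosolic sensors of RNA stood on opposite sides: Ddx58, which encodes RIG-I, was at 107 ± 8.06 against 6.31 ± 0.684 CPM, and Ifih1, which encodes MDA5, at 6.97 ± 0.926 against 27.5 ± 2.13 CPM. Interferon response genes as a whole were 12 higher and 10 lower of 24 (median 0.09).

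Most genes of MHC class II presentation, but not all, had lower RNA levels in CD11cint cells. Of 12 genes 8 were lower and 3 higher (median log2 fold change −1.07). Ciita, the master activator of these genes, was at 268, 315, 307 and 269 CPM in CD11cint libraries and 1156, 1240, 1158 and 1079 CPM in cDC1 libraries, −2.0 on the log2 scale (edgeR adjusted p = 8e-17). The chains H2-Ab1, H2-Aa and H2-Eb1 were lower, at −1.93 ± 0.09, −1.63 ± 0.09 and −1.73 ± 0.10, and Cd74, the invariant chain, at −1.09 ± 0.11. H2-Ob, a chain of the inhibitor H2-O that restrains peptide exchange, was higher (0.41 ± 0.07), and H2-Oa, its partner, was at 201, 152, 152 and 132 CPM in CD11cint libraries and 156, 165, 159 and 154 CPM in cDC1 libraries. These overlapped (log2 fold change 0.00 ± 0.09), and 22.8% of the exon bases of H2-Oa are shared with another gene. The thiol reductase gene Ifi30 was inside 1.5-fold (−0.21 ± 0.08). H2-Eb2, a beta chain gene next to H2-Eb1, rose by 1.44 ± 0.07.

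The beta chains of the peptide exchanger H2-DM, H2-DMb2 and H2-DMb1, are neighbours on chromosome 17 and moved against each other. H2-DMb2 was at 809.7, 666, 636 and 572 CPM in CD11cint libraries and 281, 280.5, 259 and 263 CPM in cDC1 libraries. H2-DMb1 was at 224, 187, 195 and 163 CPM in CD11cint libraries and 525, 514, 509 and 454 CPM in cDC1 libraries. Neither set overlapped, and both passed the 2-fold minimum (1.31 ± 0.09 and −1.38 ± 0.08, edgeR adjusted p for the minimum = 0.00131 and 8.26e-05). Per kilobase of exon, H2-DMb2 stood at 384 RPKM and H2-DMb1 at 114 RPKM in CD11cint cells, and in cDC1 the order was turned, 155 against 298 RPKM. The transcripts of the 2 genes share 31.4% of the 31-base words of H2-DMb1 and 29.7% of those of H2-DMb2, so part of their reads cannot be assigned with certainty. Their promoters are shown because neighbours with related sequence had opposite values, on the plus strand, from RefSeq on GRCm38.p6 (chr17:34144999-34145298 and chr17:34152941-34153240), with matches to the same 6 motifs in capitals.
H2-DMb2: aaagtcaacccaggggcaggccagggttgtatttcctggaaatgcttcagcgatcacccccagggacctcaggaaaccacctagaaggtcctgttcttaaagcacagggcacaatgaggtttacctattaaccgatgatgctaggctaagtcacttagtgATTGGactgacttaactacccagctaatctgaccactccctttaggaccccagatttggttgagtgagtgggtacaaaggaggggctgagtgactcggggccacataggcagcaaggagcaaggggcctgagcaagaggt
H2-DMb1: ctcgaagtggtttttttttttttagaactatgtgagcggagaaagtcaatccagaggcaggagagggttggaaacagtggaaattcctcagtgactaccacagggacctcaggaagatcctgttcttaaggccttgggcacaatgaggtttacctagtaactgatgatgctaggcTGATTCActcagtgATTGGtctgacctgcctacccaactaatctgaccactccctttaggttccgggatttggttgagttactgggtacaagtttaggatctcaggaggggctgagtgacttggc
Each window holds the letters of a CCAAT box, read on the other strand, at position −90 in H2-DMb2 and −61 in H2-DMb1, as do 37.4% of all promoters. The AP-1 element is in the H2-DMb1 window, at position −75, and not in the H2-DMb2 window (7.81% of all promoters hold it, and a missing match says only that these letters are not in this window). Of the 288 words of 13 bases in the H2-DMb2 window 32 (11.1%) recur in the H2-DMb1 window.

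For MHC class I, 12 of 17 genes were lower and 5 higher, none higher past the 2-fold minimum (median log2 fold change −0.54). The peptide loading genes fell, with Pdia3 at −1.39 ± 0.11, Tap1 at −1.09 ± 0.07, Tap2 at −1.13 ± 0.07 and Tapbp at −0.67 ± 0.07, while B2m and H2-K1 were inside 1.5-fold. H2-D1 was lower (−0.54 ± 0.07) and H2-Q6, H2-Q4 and H2-Q7 were higher, but these class I genes share much sequence, which leaves their values uncertain. Among 17 genes of cross-presentation and the phagosome 6 were higher, 8 lower and 6 inside 1.5-fold. Of all genes tested 36.6% were higher, 35.7% lower and 29.7% inside 1.5-fold. Wdfy4, which cDC1 need to cross-present, was at 665, 915, 889 and 865 CPM in CD11cint libraries and 3209, 3785, 3616 and 3152 CPM in cDC1 libraries (−2.05 ± 0.09). The phagocyte oxidase had higher Cybb and Rac2 in CD11cint cells (1.99 ± 0.13 and 2.13 ± 0.08), with Ncf4 inside 1.5-fold and Cyba not called (−0.20 ± 0.10). Cyba was called, and lower, with the block (adjusted p = 0.0122) and without CD11cint library 1 or cDC1 library 4 (0.00125 and 0.0216). Rab43 was lower, at −4.18 ± 0.07, with 75.3% of its exon bases shared with another gene. Of 13 endosomal proteases and their inhibitors 6 were higher and 6 lower, beside the same shares of all genes. Cathepsin S (Ctss), which degrades the invariant chain, was inside 1.5-fold (−0.22 ± 0.09), the asparagine endopeptidase gene Lgmn was at 201, 169, 169 and 181 CPM in CD11cint libraries and 46.6, 43.8, 43.5 and 46.7 CPM in cDC1 libraries (1.99 ± 0.07), and Cst3, the inhibitor cystatin C, at 79.2 ± 19.8 against 4674 ± 277 CPM (−5.88 ± 0.11).

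Most genes of signals to T cells, activating or inhibitory, had lower RNA levels in CD11cint cells. Protein at the surface was not measured here. Of 16 costimulatory and coinhibitory genes 11 were lower and 3 higher (median −1.24). Cd86 was at 58.1, 54.7, 51.6 and 58.6 CPM in CD11cint libraries and 346, 359, 387 and 397 CPM in cDC1 libraries (−2.74 ± 0.07), Cd80 was lower, at −3.52 ± 0.12, Vsir at −4.45 ± 0.08 and Havcr2, which encodes TIM-3, at −7.52 ± 0.18. The 3 higher genes were Cd40, Cd274 and Pdcd1lg2, the last 2 encoding the ligands of PD-1 (1.09 ± 0.09, 1.34 ± 0.09 and 2.50 ± 0.15). Of 30 cytokine and cytokine receptor genes 20 were lower and 8 higher (median −1.65). The chemokine gene Cxcl9 was at 2.56 ± 0.583 against 332 ± 20.02 CPM and Ifngr1, a chain of the interferon gamma receptor, at 67.8 ± 3.41 against 667 ± 19.2 CPM. Il9r was the reverse at 316 ± 21.3 against 8.85 ± 1.3 CPM, as was the BAFF receptor gene Tnfrsf13c at 208 ± 12.4 against 5.54 ± 0.673 CPM. The subunits of interleukin 12 stood on opposite sides: Il12a was at 8.39, 7.94, 7.94 and 9.62 CPM in CD11cint libraries and 0.173, 0.2, 0.183 and 0.285 CPM in cDC1 libraries, and Il12b at 0, 0.188, 0.0429 and 0.177 CPM in CD11cint libraries and 9.79, 8.99, 14 and 13.2 CPM in cDC1 libraries. Il12a thus rose (5.31 ± 0.26) and Il12b fell (−6.74 ± 0.57), both at low levels on their lower side.

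Receptors that place cells in the spleen stood on both sides. Of 22 chemokine and positioning receptors 10 were higher and 9 lower, 9 and 9 past the 2-fold minimum. Of all genes tested 36.6% were higher and 35.7% lower, 11.5% and 15% past the minimum. Cxcr5, which leads B cells to follicles, was at 391, 388, 328 and 292 CPM in CD11cint libraries and 5.43, 4.56, 3.18 and 3.93 CPM in cDC1 libraries, and the sphingosine-1-phosphate receptor genes S1pr1 and S1pr3, which hold marginal zone B cells in place, rose by 6.31 ± 0.12 and 6.00 ± 0.15. Ccr6 and the scavenging receptor gene Ackr3 rose by 5.22 ± 0.21 and 6.00 ± 0.28. P2ry14, Ccr2, Ccr9 and Cxcr3 were lower, at −6.74, −5.50, −3.80 and −3.60. Ccr7 and Cxcr4 were not called (−0.34 ± 0.19 and −0.24 ± 0.42), and the interval of Cxcr4 reached past 2-fold (−1.14 to 0.66). With the block both were called lower (adjusted p = 0.0448 and 0.0433), and Ccr7 also without cDC1 library 2 (0.0289). Integrins and adhesion genes were lower in 17 of 21 and higher in 3, among them Icam2 and Epcam (median −1.86). The beta chains Itgb1, Itgb2 and Itgb7 were lower, at −2.35 ± 0.08, −2.19 ± 0.06 and −2.29 ± 0.16, Selplg, the ligand of selectins, at −4.12 ± 0.08, and Itgal, the alpha chain of LFA-1, was inside 1.5-fold (−0.34 ± 0.07).

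Of 16 tested complement genes 6 were higher and 5 lower (median −0.30), where 36.6% of all genes tested were higher and 35.7% lower. Besides Cr2, the membrane regulators Cd55 and Cd59a were higher in CD11cint cells, at 126 ± 2.42 against 2.67 ± 0.697 CPM and 9.34 ± 1.03 against 0.223 ± 0.126 CPM. In the Notch pathway 9 of 23 genes were higher and 11 lower (median 0.07), beside the same shares of all genes. Dtx1, a Notch target of marginal zone B cells, was at 752, 653, 658 and 591 CPM in CD11cint libraries and 27.9, 28.3, 23.1 and 21 CPM in cDC1 libraries, Maml2 rose by 2.64 ± 0.10, Hes1 by 0.91 ± 0.09 and Notch1 by 0.66 ± 0.12. Notch4, Notch3 and the ligand gene Jag2 were lower (−7.30 ± 0.17, −6.54 ± 0.57 and −4.81 ± 0.19), as was Rbpj, the DNA-binding partner of Notch (−2.46 ± 0.09).

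The 18 marginal zone genes themselves did not move as 1 block against cDC1. While 12 were higher, led by Cr2, Fcrl5, S1pr3 and Mzb1 (57.2% of whose exon bases are shared with another gene), 6 were lower: Tlr3, Asb2, Lfng, Cd9, Cd81 and Cd36. Asb2 was at 69.7 ± 6.63 against 290.5 ± 15.1 CPM, Lfng, a modifier of Notch, at 16.5 ± 2.59 against 68.2 ± 5.59 CPM, and the tetraspanin gene Cd9 at 59.5 ± 4.31 against 185 ± 12 CPM. Cd36, a scavenger receptor on both the marginal zone and the cDC1 list, was at 269, 301, 276 and 363 CPM in CD11cint libraries and 363, 403, 399 and 427 CPM in cDC1 libraries, with CD11cint library 4 level with the lowest cDC1 library (−0.40 ± 0.11). Of 9 follicular B cell genes 5 were higher and 2 lower, so a comparison with cDC1 does not set kinds of B cell apart. Other tetraspanins were set apart by population, with Cd37 and Tspan32 higher (3.26 ± 0.08 and 6.02 ± 0.11), Tspan33 and Tspan13 lower (−6.14 ± 0.18 and −2.04 ± 0.08), and Cd151 not called (0.06 ± 0.13).

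Genes of the cytoskeleton were mostly lower. Of 28 actin and motility genes 22 were lower in CD11cint cells, 3 higher and 3 not called (median −0.80). Tmsb4x, which binds free actin, was at 2175, 1673, 1422 and 1545 CPM in CD11cint libraries and 7247, 7134, 7018 and 6563 CPM in cDC1 libraries (−2.04 ± 0.10), and Fscn1, Myo1f and Vim were lower, at −4.28 ± 0.14, −4.13 ± 0.09 and −2.53 ± 0.09. The higher genes were Rac2 (2.13 ± 0.08), Dock2 and Was, the last 2 inside 1.5-fold, as were Dock8, Wipf1 and Coro1a. In metabolism, 11 of 20 glycolysis genes were lower and 6 higher (median −0.23). Hexokinase genes were exchanged: Hk3 was at 2.17 ± 0.311 against 136 ± 7.08 CPM, Hk2 at 14.5 ± 1.88 against 80.6 ± 4.03 CPM and Hk1 at 56 ± 4.28 against 32.8 ± 1.81 CPM, and the glucose transporter gene Slc2a1 rose by 1.42 ± 0.12. Of 20 cholesterol and lipid genes 14 were lower and 4 higher, with the sterol exporter gene Abca1 at 61 ± 13.2 against 3.52 ± 0.382 CPM and the lipid droplet gene Plin2 at 7.26 ± 1.53 against 155 ± 17.5 CPM.

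All 18 cell cycle genes were lower in CD11cint cells, but by little (median −0.69, 1 past the 2-fold minimum), and with upper quartile factors or library size alone 13 were. Mki67 was at 91.4, 157, 186 and 225 CPM in CD11cint libraries and 278, 314, 264 and 310.5 CPM in cDC1 libraries (−0.82 ± 0.19), Cdk1 was lower, at −1.26 ± 0.11, and the replication genes Pcna, Mcm5, Mcm3 and Mcm2 were inside 1.5-fold. Without both libraries numbered 1, Mcm2, Mcm3 and Mcm5 were no longer called (14 of 18 lower, adjusted p = 0.176, 0.159 and 0.194), and each was lost in 5 or more of the 8 fits that left out 1 library (adjusted p from 0.0512 to 0.151 where lost). The survival gene Bcl2 was higher, at 91.2, 106, 119.7 and 145 CPM in CD11cint libraries and 12.2, 13.1, 11.1 and 12.9 CPM in cDC1 libraries. Pmaip1, which encodes the death-promoting NOXA, was lower, at 17 ± 4.19 against 300.2 ± 44 CPM. Of 17 apoptosis regulators 12 were lower and 3 higher, and the 3 Bcl2a1 copies among the lower ones share 79.6% to 89.1% of their 31-base words with other genes. Of 12 immediate early genes, which tissue dissociation can induce, 10 were lower, Egr2 was not called and Egr3 was higher, at 47.7, 55.4, 53.7 and 54.2 CPM in CD11cint libraries and 17.2, 15, 16.2 and 25.3 CPM in cDC1 libraries. Fos was at 146, 39.98, 118 and 63.1 CPM and 1060, 545, 1075 and 698 CPM in the same order. The heat shock gene Hspa1a moved with them, at 91, 85.2, 176 and 3.43 CPM in CD11cint libraries and 1183, 1086, 2113 and 340.1 CPM in cDC1 libraries (−3.73 ± 0.93, edgeR adjusted p = 0.00403), and what part handling had in the lower early genes was not tested.

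Some related genes stood on opposite sides. The 36 pairs of related genes were chosen by hand and so give a description only. In 17 both partners were called in opposite directions, 8 of them both past the 2-fold minimum. In 14 both were called the same way, and 5 had at least 1 partner not called. Of all genes tested, 36.6% were higher and 35.7% lower. These are shares of single genes and no baseline for pairs, for which none was computed. The inhibitors of E proteins were mirror images: Id3 was at 22.4, 21.4, 18 and 17.5 CPM in CD11cint libraries and 0.346, 0.932, 0.475 and 0.892 CPM in cDC1 libraries, and Id2 at 22.6, 17.7, 19.5 and 14.7 and 565, 523, 559.8 and 556 CPM, for log2 fold changes of 4.89 ± 0.22 and −4.89 ± 0.12. Per kilobase, Id3 and Id2 were at 11.1 and 7.65 RPKM in CD11cint cells, and at 0.369 and 226 RPKM in cDC1. The adaptors Blnk and Lcp2 were likewise exchanged (4.88 ± 0.09 and −5.31 ± 0.14), as were the Ets factors Spib and Spi1 (3.24 ± 0.12 and −2.09 ± 0.09), Irf4 and Irf8 (1.92 ± 0.11 and −2.81 ± 0.08), Tlr1 and Tlr2, and the chemokine receptors Cxcr5 and Xcr1. Also opposite were Prkcb and Prkcd (0.78 ± 0.09 and −0.78 ± 0.07), Rac2 and Rac1, of which Rac1 shares 51.4% of its exon bases (2.13 ± 0.08 and −0.93 ± 0.06), and Bach2 and Bach1 (1.96 ± 0.15 and −1.21 ± 0.09). In the catalytic subunits of phosphoinositide 3-kinase both partners were lower, but unequally, with Pik3cb at 5.72 ± 1.18 against 319 ± 14 CPM and Pik3cd at 194 ± 13.5 against 367 ± 25 CPM.

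**Figure D4:**
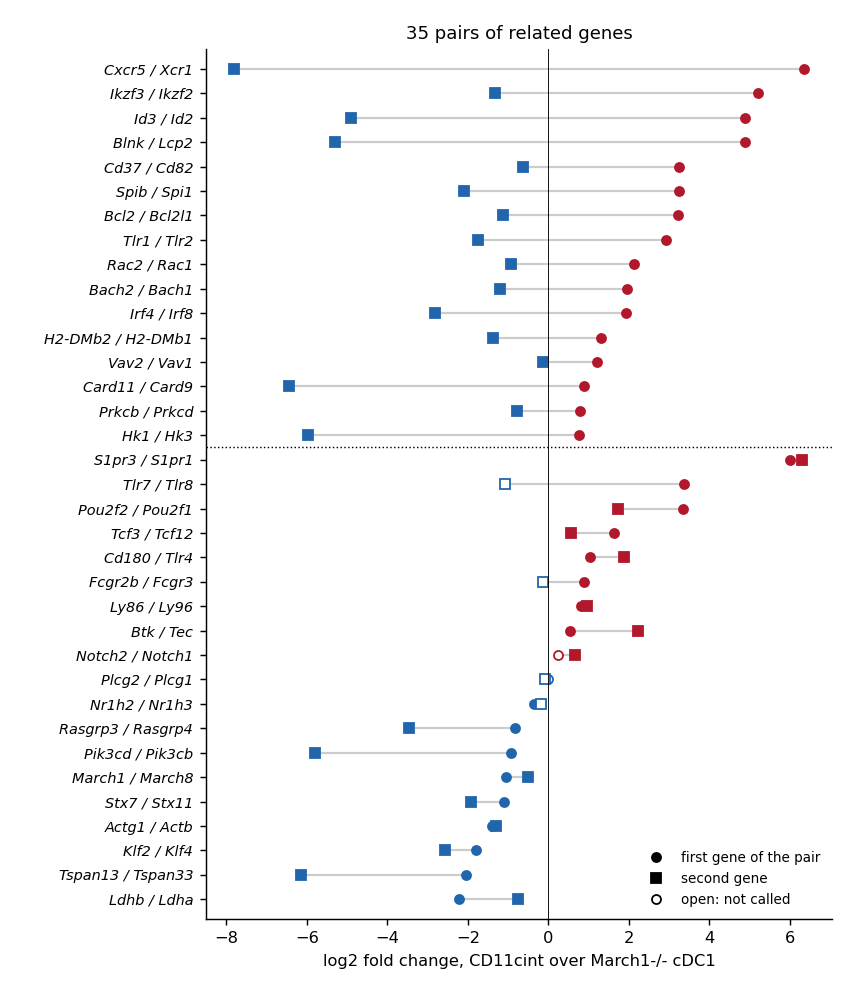
Log2 fold change (CD11cint cells over March1-/- cDC1) of both genes of 35 of the 36 related pairs, joined by a line. Circles are the first gene named, squares the second, open symbols genes not called. The 16 pairs above the dotted line have both genes called in opposite directions.

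Some differences lay side by side on the chromosome. Taking 13122 tested protein-coding genes in order, 50 runs held 5 or more neighbours called at least 2-fold in the same direction, 14 higher and 36 lower, where 13.18% of these genes were higher and 20.04% lower by that measure. These runs were picked after their values were seen, and they are given as a description. On chromosome 6 (GRCm38, 48626764 to 48770851) 10 neighbours were higher, among them all 8 tested Gimap genes, GTPases of lymphocyte survival, at log2 fold changes of 4.63 to 5.64. In this run up to 43.68% of the exon bases of a gene are shared with another gene, so its members are not all separate observations. Gimap6 was at 482, 401, 404 and 429 CPM in CD11cint libraries and 9.07, 10.1, 7.2 and 7.92 CPM in cDC1 libraries. On chromosome 11 (114851152 to 115062177) 10 neighbours were lower, Gprc5c and 9 members of the CD300 family of lipid-binding receptors. Cd300a was at 1.87, 2.03, 1.12 and 1.66 CPM in CD11cint libraries and 104, 105, 88.9 and 114 CPM in cDC1 libraries. Cd300lf was the 1 member of 11 that was not called, at 30.5 ± 12.8 and 20.6 ± 2.96 CPM. It was called, and higher, with the block (adjusted p = 0.000107) and without CD11cint library 1 (0.041). Another run on chromosome 6 (129342691 to 129623864) held 9 lower neighbours from Clec12a to Klrk1, with Clec9a, Clec1a and Clec1b, but also Klrd1 and Klrk1, receptor genes best known from NK cells, at 1.32 ± 0.515 against 53.9 ± 6.45 CPM and 1.69 ± 0.705 against 103 ± 6.86 CPM. The NK cell genes Gzma, Ncr1, Eomes and Klrb1c were not called and lay at 1.7 ± 0.951, 0.563 ± 0.298, 0.637 ± 0.217 and 1.32 ± 0.308 CPM in CD11cint cells and 0.796 ± 0.416, 0.251 ± 0.122, 0.452 ± 0.129 and 0.603 ± 0.343 CPM in cDC1. With the block Gzma, Ncr1 and Klrb1c were called higher (adjusted p = 0.00256, 0.0122 and 0.000676), and without 1 library so were Gzma (CD11cint 4, 0.0486) and Klrb1c (cDC1 2, 0.0383).

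**Figure D5:**
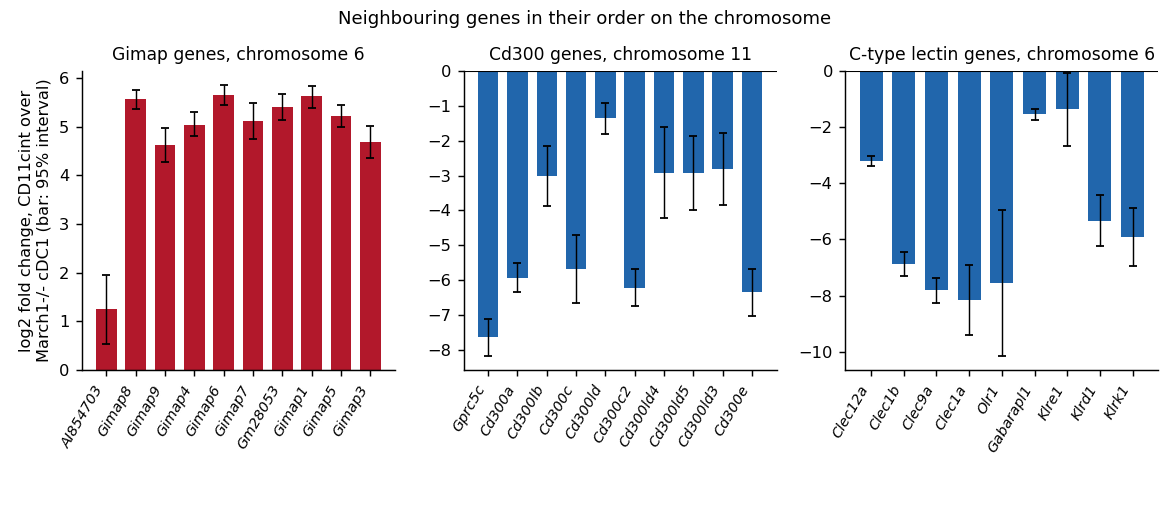
Log2 fold change (CD11cint cells over March1-/- cDC1, bars, with 95% intervals as lines) of neighbouring genes in chromosome order in 3 runs. The Gimap run is higher in CD11cint cells throughout, the Cd300 and C-type lectin runs lower throughout. Up to 43.68% of the exon bases of a gene of the full Gimap run, and 28.32% in the C-type lectin run, are shared with another gene.

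The make-up of the libraries as a whole differed too. Mitochondrial transcripts took 4.19 ± 0.132% of counts in CD11cint libraries and 2.7 ± 0.233% in cDC1 libraries (mean ± SD, n = 4, two-sided p = 0.0286 by an exact permutation test, the lowest value possible with 70 assignments, which takes no account of the pairing of same-numbered libraries). Within the 4 pairs, 16 sign flips can give no two-sided exact p under 0.125, which is the value of each share given here with 0.0286. Ribosomal protein genes took 8.6 ± 1.39% against 5.56 ± 0.28% (exact permutation p = 0.0286), with CD11cint library 1 highest at 10.7%. Of 81 such genes 70 were higher and 3 lower, at a median log2 fold change of 0.48, and many share sequence with pseudogenes. MHC class II genes took 1.65 ± 0.236% against 3.69 ± 0.0878% and immunoglobulin genes 1.44 ± 0.108% against 0.065 ± 0.00653% (exact permutation p = 0.0286 each). All 208 immunoglobulin variable segments were higher in CD11cint cells (median 5.11), although reads of related segments cannot be kept apart. Among the genes that gained most in CPM, of those past the 2-fold minimum, were Ighm, Cr2, Igkc, Ms4a1, Cd79a, Cd22, Cd79b, Pax5, the fatty acid desaturase gene Scd1, Serinc3, Rps27, Cd37, Shisa5 and Macf1. Those that lost most were Psap, the precursor of lysosomal saposins, at 1441 ± 64.1 against 11350 ± 643 CPM, then H2-Aa, Tmsb4x, H2-Ab1, the pore-forming Mpeg1 at 207 ± 49.6 against 5090 ± 133 CPM, Cst3, Actb, H2-Eb1, Ppt1, Actg1, Wdfy4, Gm2a, Plbd1, Naaa and Irf8. Among the latter, Psap, Ppt1, Gm2a, Plbd1 and Naaa encode lysosomal proteins.

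Each population held a trace of the RNA that marks the other. The 15 pan B genes were in cDC1 at up to 27.4% (Fcrla) of their CD11cint level, with a median of 2.08%, and their sum was at 2.55% to 3.14% in cDC1 libraries 1 to 4. The 15 cDC1 genes were in CD11cint cells at 0.323% (Tlr11) to 76.0% (Cd36) of their cDC1 level, with a median of 1.85%, and their sum at 9.27% to 10.9%. In CD11cint cells this sum was mostly Wdfy4 and Cd36, the latter also on the marginal zone list, so the sum is no measure of cDC1 RNA as a whole. Ighm was at 488, 500.3, 448 and 467 CPM in the cDC1 libraries and 7452, 6279, 6100 and 6128 CPM in the CD11cint libraries. WT cDC1 held 455 ± 19.1 CPM. Whether these traces are RNA of the cells named or of others in the sort was not tested.

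The distance between CD11cint cells and March1-/- cDC1 was set against that between WT B cells and WT cDC1, with 4 other libraries on each side. The log2 differences of the 2 comparisons, which share no library, went together across all genes (Pearson r 0.954 over 18710 genes, which are not independent replicates). Genotype and kind of B cell both differ between them. Their parts were not tested singly, and levels in the March1-/- B cells of the series are given for some genes. The difference of the differences was called for 1208 genes (6.46%), 495 (2.65%) toward CD11cint cells and 713 (3.81%) toward cDC1 (edgeR adjusted p under 0.05). With the replicate number as a block the count was 2374. Toward CD11cint cells the largest were Gm3336, Gp2, Lad1, Mab21l3, Cd207, Apol7a, Cacnb3, Apol7c, Il12b and Arpin. All 10 were low on the B cell side, under 1.5 CPM except for Apol7c, which was at 10.9 ± 3 CPM in CD11cint cells and 2.32 CPM in WT B cells, against 819 ± 97 and 1711 CPM in the cDC1 of the same genotype. Gm3336 stood at 21.6 CPM among WT cDC1 libraries and at only 1.37 ± 0.488 CPM among those of the March1-/- cDC1, and at 0.342 CPM in March1-/- B cells. Among the largest toward cDC1 were Notch3, Ahnak, Endou, Cd209d, Trem1, Lifr, Cd209a, Ace and Klra17. Ahnak, a large scaffold protein gene, was at 9.95, 18, 22.6 and 18.9 CPM in CD11cint libraries and 216, 236, 220.5 and 161 CPM in March1-/- cDC1 libraries, but at 160.7 and 210.1 CPM on average in WT B cells and WT cDC1 and at 157 CPM in March1-/- B cells, so that the wide gap here was narrow in WT (difference of the log2 differences −3.20 ± 0.28, edgeR adjusted p = 1.06e-06). Cd8a and Xcr1 differed toward CD11cint cells (2.49 ± 0.23 and 1.73 ± 0.18), while Cr2 and Pax5 differed toward cDC1 (−1.03 ± 0.21 and −1.50 ± 0.19). Cr2 was at 1399 CPM in March1-/- B cells and 2095 CPM in WT B cells, and at 11.9 CPM in WT cDC1. March1 itself did not pass (0.17 ± 0.10, edgeR adjusted p = 0.408).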

How the data were processed

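RNA of 5 sorted spleen cell populations was sequenced in 20 libraries on an Illumina instrument with TruSeq libraries after RNeasy extraction, per the labels' protocols. The deposited values were raw counts per gene, with GRCm38 and, among tools, STAR, Subread, CASAVA, FastQC, limma and edgeR listed without version in the submitters' processing notes. Whether counting used strand is not stated there, and genes that overlap on opposite strands cannot be told apart. The 2 lanes of each library summed to the deposited counts per gene in all 566760 cells. Identifiers were matched to GENCODE M21 (28290 matched, 48 did not).

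Genes were kept with filterByExpr, scaled with TMM and fitted with edgeR 4.0.16 (R 4.3.3), quasi-likelihood F test with robust dispersion over all 20 libraries in 5 groups, with Benjamini-Hochberg adjustment. The fold minimum was tested with glmTreat, and shares of counts with exact permutation tests. The script was tested on simulated data. Same-numbered CD11cint and cDC1 libraries deviated together (r = 0.499, 0.452, 0.199 and 0.662 over 8855 genes), so the numbers may pair the libraries, although no label says so. The main fit did not pair them, and its calls, SEs and intervals take no account of this. The replicate number entered only as a block among the alternatives and in the sign flips of the shares of counts. Named are genes of the lists and pairs, the largest differences in fold, in CPM and from WT, and the most abundant genes inside 1.5-fold. Some genes that these rules name are not reported here. Neighbour runs were chosen after their values were seen. The members and lists were chosen with earlier results of these data known. Alternatives were DESeq2 1.42.0, limma-voom 3.58.1, other scalings and filters, the block and fits without single libraries. Intervals of fold changes come from the fit and hold the spread between libraries, whereas floors cover counting error only.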

Additional observations from a re-analysis of the deposited data

Results flagged for a closer look

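Of 94 sets of 4 libraries looked at, 6 had 1 library far from the other 3 (by Dixon's criterion at 95%), where chance gives about 1 in 20. CD11cint library 1 was low for Cr2 (2494 CPM, the others 3263 to 3419) and Pax5 (744.8 CPM, the others 1035 to 1081), and high for Ighm (7452 CPM, the others 6100 to 6279). Its mitochondrial share was 3.994% of counts, against 4.228% to 4.27%. In cDC1 library 1, genes of the ribosomal RNA repeat took 3.558% of counts, against 0.3603% to 0.4672%. Coro1a was low in cDC1 library 4 (838.1 CPM, the others 969.8 to 993.3).

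The log2 difference between CD11cint cells and March1-/- cDC1 departed from that between WT B cells and WT cDC1 for 1208 genes, by the test of the difference itself (edgeR adjusted p under 0.05). The 19 genes given here were picked from these for the size of that difference, so their number is set by the choice (edgeR adjusted p of at most 0.0445). Toward CD11cint cells the differences were 8.88 (Gm3336), 3.89 (Gp2), 3.74 (Lad1), 3.71 (Mab21l3), 3.46 (Cd207), 3.42 (Apol7a), 3.32 (Cacnb3), 3.31 (Apol7c), 3.26 (Il12b) and 3.16 (Arpin). Toward cDC1 they were −3.66 (Notch3), −3.20 (Ahnak), −3.16 (Endou), −2.81 (Cd209d), −2.78 (Trem1), −2.74 (Lifr), −2.73 (Cd209a), −2.56 (Ace) and −2.55 (Klra17).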

How the results depend on the processing

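Under the alternatives tried, the genes called ranged from 12147 (only the 8 libraries compared) to 14650, those past the 2-fold minimum from 4253 to 5658, and those inside 1.5-fold from 5052 to 6161 with a 95% interval (4581 with a 99% interval). Leaving out 1 library gave 13106 to 13713, 4876 to 5069 and 5267 to 5689. The count of differences from WT was 2374 with the replicate block, against 1208, and 956 to 1536 with 1 library left out. The fits with only the 8 libraries give no value for it. Over all genes the block moved no other count of calls given here by over 1.5 times. Among the lists it moved the genes higher from 1 to 4 (NK cell), 1 to 5 (neutrophil) and 2 to 6 (erythroid and platelet). The median of all genes was 0.03 with TMM, 0.154 with upper quartile factors and 0.18 with library size alone, and no gene called in both was called in opposite directions.
Of 268 genes named, 21 changed sign under an alternative, 1 of them called (Vav1, −0.13, which was 0.02 with library size alone). With upper quartile factors the values were 0.09 (Egr2), 0.10 (Eif4g2), 0.07 (Hnrnpa2b1), 0.08 (Pik3ap1 and Ptprc), 0.06 (Plcg1), 0.11 (Plcg2) and 0.04 (Srrm2). With library size alone they were 0.12 (Egr2), 0.13 (Eif4g2), 0.09 (Hnrnpa2b1), 0.02 (Icosl, Mcl1 and Unc93b1), 0.11 (Pik3ap1 and Ptprc), 0.08 (Plcg1 and Srrm2) and 0.14 (Plcg2, adjusted p = 0.0302). With the block they were 0.01 (Egr2) and −0.01 (H2-Oa), and 0.03 for Egr2 in 8 libraries. H2-Oa was −0.01 with RLE factors and limma-voom, Pabpc1 −0.01 with RLE factors and DESeq2, Egr2 0.05 with limma-voom and Plcg2 0.01 with no filter. Without both libraries numbered 1 the values were −0.03 (Cd3e and Ly6e), −0.02 (Coro1a), 0.01 (Eif4g2, Plcg2, Ptprc and Srrm2), −0.13 (H2-Oa) and 0.06 (Pik3ap1). With 1 library left out the values ran from −0.03 to 0.15 (Cd151), −0.22 to 0.20 (Cd3e), −0.04 to 0.13 (Coro1a), −0.65 to 0.03 (Cxcr4), −0.05 to 0.10 (Dock8), −0.21 to 0.16 (Egr2), −0.04 to 0.02 (Eif4g2), −0.13 to 0.09 (H2-Oa), −0.07 to 0.12 (Ly6e), −0.02 to 0.01 (Pabpc1), −0.12 to 0.06 (Pik3ap1), −0.06 to 0.02 (Plcg2), −0.12 to 0.04 (Ptprc), −0.19 to 0.09 (Srrm2) and −0.01 to 0.18 (Tpt1). The cause was not tested. Depth limits statements on genes near 0.129 CPM, the highest floor.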
